A study of Mus musculus with 3 samples.

Results

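In mouse embryonic stem cells, 943 of 12797 short runs of neighbouring array probes ranked at least 20 percentile points higher for 5-methylcytosine (5mC) than for 5-hydroxymethylcytosine (5hmC). A run is a set of probes with consecutive probe numbers, and runs of 3 to 7 probes were ranked by their median value on each array. The ranks were expressed as percentiles among these runs. A run was a member when its 5mC percentile lay at least 20 points above its percentile on each of the 2 arrays for 5hmC. The members held 3774 of the 55025 probes in runs of this length. Members are 7.37% of the runs, and the opposite order, with 5mC at least 20 points below both, was met by 795 runs or 6.21%. The values on all 3 arrays chose the members, so the levels of members are given as a description and nothing is tested on them.

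The study used wild-type embryonic stem cells with no treatment named, and each array set precipitated DNA, labelled with Cy5, against genomic DNA of the same wild-type cells, labelled with Cy3. The 5mC array held DNA captured with an MBD reagent. The other 2 arrays held DNA immunoprecipitated for 5hmC, and 1 of these carries the word IVT, which the labels do not explain, so it is called the IVT array and kept apart. Each group was 1 array, so there are no replicates, and all comparisons between arrays are descriptions without a test. The sources used here do not give the culture conditions, the number of cultures or the strain.

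5mC is the methyl mark that DNA methyltransferases place mainly at CG dinucleotides, and at promoters and imprinted regions it is known for stable gene silencing. TET enzymes oxidise 5mC to 5hmC, and embryonic stem cells are known for high TET activity and for a high content of 5hmC compared with most dividing cells. MBD domains bind methylated CG sites and bind 5hmC only weakly, so an MBD capture and a 5hmC precipitation report different states of cytosine. Where 5mC ranks above 5hmC, the ratio of captured to genomic DNA stands higher in the order of regions for the first mark than for the second. This is a difference of ranks and gives no amount of either modification.

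The deposited values are signed log ratios with an unstated base, so no fold enrichment is given. A higher value likely means more precipitated DNA, a direction taken only from which channel the labels list first. With every sign turned, the same 943 runs would have 5mC ranked below both 5hmC arrays. Probes are identified by number only, and positions, genes and sequences were not used here. Consecutive numbers were taken to mark neighbours.

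Taken 1 array at a time, members had a moderately high median for 5mC and a moderately low median on both 5hmC arrays. Their 5mC log ratio ranged from -0.27 to 2.25 with a median of 0.71, against a median of 0.24 over all 12797 runs. On the 5hmC array they ranged from -2.22 to 0.91 with a median of -0.30, against 0.04 over all runs. On the IVT array they ranged from -5.03 to 0.04 with a median of -0.88, against -0.47 over all runs. In percentiles the medians were 75.7 (5mC), 39.1 (5hmC) and 30.2 (IVT array). A log ratio above 0 was found in 892 members (94.6%) for 5mC, against 65.2% of all runs. For 5hmC it was found in 339 members (35.9%), against 51.2% of all runs. For the IVT array it was found in 4 members (0.42%), against 26.4%. The sign pattern of 5mC above 0 with both 5hmC arrays below 0 was held by 58.5% of members and by 13.9% of all runs. The rule used the same values and so favours this pattern in members.

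**Figure D1:**
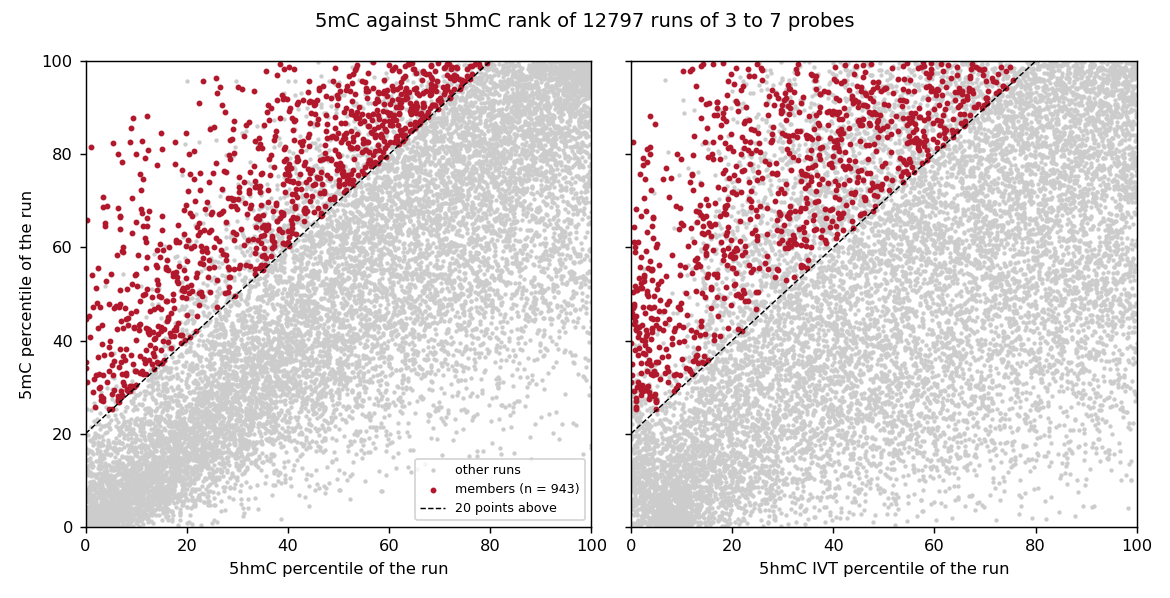
Each point is a run of 3 to 7 probes. The vertical axis is its percentile on the 5mC array, and the horizontal axis is its percentile on the 5hmC array (left) or the IVT array (right). The 943 members (red) lie on or above the dashed line of 20 points in both panels, from 5mC percentile 25.2 upwards, and grey points above the line in 1 panel miss the rule in the other.

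The members were of 3 kinds. In 403 members (42.7%, 95% Clopper-Pearson interval 39.6 to 46.0) 5mC lay above the middle of the runs and both 5hmC arrays below it, with median percentiles of 67.8 (5mC), 32.0 (5hmC) and 24.1 (IVT array). In 374 members (39.7%, 36.5 to 42.9) 5mC was higher still, at a median percentile of 89.0, and at least 1 5hmC array was in the upper part too. Of these, 137 were at or above the middle on both 5hmC arrays. These were runs in the upper part of the ranking on all arrays. None of the 943 members exceeded percentile 79.4 on the 5hmC array or 75.5 on the IVT array. The rule sets such a ceiling, since 5mC must lie at least 20 points higher.

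The remaining 166 members (17.6%, 15.2 to 20.2) were at or below the middle for 5mC as well. Their median log ratios were 0.11 (5mC), -1.57 (5hmC) and -3.58 (IVT array). Both 5hmC arrays were in the lowest 20% in 151 of them. For members this low in 5mC, the rule itself requires low ranks on both 5hmC arrays. These members entered the set through very low 5hmC values with a 5mC value that was ordinary. Intervals cover only counting error over the runs or probes of these arrays. Over all kinds, 400 members lay in the upper 20% of 5mC and 86 between percentiles 20 and 40, and none lay in the lowest 20%, which the rule does not permit.

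Members were also drawn from the strongly depleted tail of the IVT array. Of member probes 16.6% (15.5 to 17.9) had an IVT value more than 2 robust SDs below the median of that array, that is below -2.75, against 7.47% of the probes in all runs of 3 to 7. In 127 members (13.5%) every probe was in that tail, against 5.69% of all runs of 3 to 7. The 226 members with both 5hmC arrays in the lowest 20% had a median 5mC log ratio of 0.17, and all 1858 runs with such low 5hmC had -0.86. The rule admits only runs with higher 5mC ranks, so the higher 5mC of these members follows from it. The 5mC percentiles of the 226 members went from 25.2 to 88.3. The tail of the IVT array was part of the rule, and its share in the choice of members was not tested.

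The 5mC array has a narrow peak of values around 0.27, and members were not drawn from it more than other runs. Within 0.05 of that value lay 7.95% of member probes (7.11 to 8.86) and 8.90% of the probes in all runs of 3 to 7.

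The 5hmC array was usually the limiting side of the rule. The median difference was 30.6 points to the 5hmC array and 38.4 points to the IVT array. Both 5hmC arrays ranked members within 20 points of each other in 77.6% of cases, against 60.7% of all runs. In 66.9% of members the 5hmC percentile was above the IVT percentile, against 49.6% of all runs. The rule used both arrays, so these comparisons with all runs are descriptions only. The 943 members were among 1741 runs (13.6%) that lay at least 20 points above the 5hmC array and among 2855 (22.3%) that did so above the IVT array.

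Near the limit of 20 points the runs were much alike. The 92 members with a smaller difference of 20 to 21 points had median log ratios of 0.80, 0.08 and -0.73 for 5mC, 5hmC and the IVT array. The 87 runs with 19 to 20 points, just outside, had 0.66, 0.08 and -0.70. A smaller difference of at least 30 points was found in 392 of the 943 members, and the other members lay between 20 and 30 points.

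The member with the largest difference, ranked by the smaller of its differences to both 5hmC arrays, was the run of 4 probes that starts at A_68_P27916624. Its 5mC log ratios were 1.28, 0.47, -1.64 and 1.46 in probe order. Its 5hmC values were -1.85, -2.26, -2.20 and -1.81, and its IVT values were -2.66, -3.78, -4.11 and -4.27. Both 5hmC arrays were low at each of the 4 probes, whereas 5mC was high at the outer probes and very low at the third. The run medians were 0.87 for 5mC, at percentile 81.6, and -2.02 and -3.95 for the 5hmC arrays, at percentiles 1.04 and 3.84. The smaller difference of 77.8 points was still 60.4 points in the worst case when any 1 probe was left out.

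The second member, of 5 probes, begins at A_68_P32462207. Its 5mC values were 1.13, 1.98, -0.53, -0.61 and 1.09. Its 5hmC values stayed between -1.89 and -1.32 and its IVT values between -4.10 and -3.59. As in the first run, both 5hmC arrays were low at every probe while the 5mC profile was uneven. Its smaller difference was 76.1 points, and 41.8 points at the lowest when 1 probe was left out. It is 1 of the members at the end of the probe order, where IVT values were lower.

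This uneven 5mC profile was common among the 10 members with the largest difference. The SD of 5mC over the probes of a run ranged from 0.48 to 1.75 in these 10 runs with a median of 1.24, and it exceeded 1 in 8 of them. The SD of 5hmC had a median of 0.23. In 8 of the 10 runs at least 1 probe was in the lowest 20% of all probes for 5mC, and in 7 of them another probe was in the highest 20%. A probe in the lowest 20% was present in 40.9% of members and 48.3% of all runs, and such a probe together with 1 in the highest 20% in 22.6% of members and 15.9% of all runs. The run median thus hides probes that differ widely. Of the 10 runs, 9 had 3 or 4 probes and 6 had an IVT median in the depleted tail. The difference of at least 20 points was kept in 7 of the 10 runs whichever probe was left out.

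**Figure D2:**
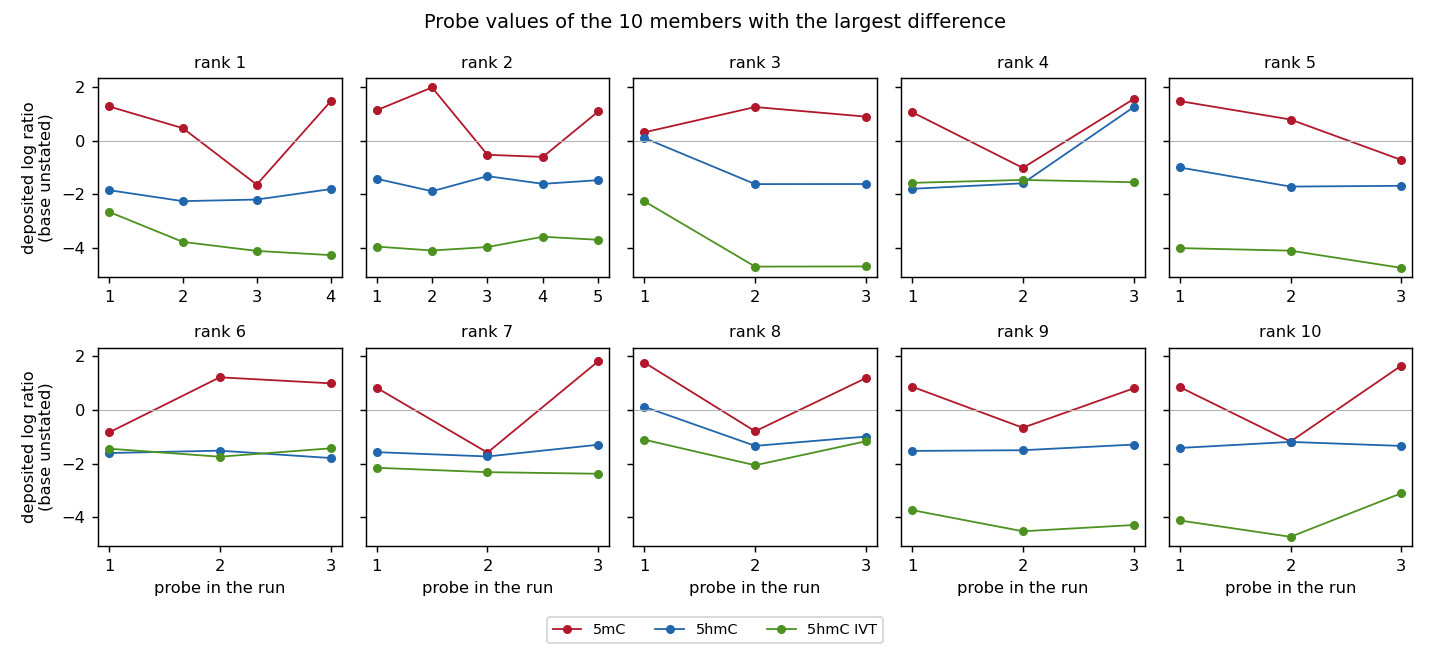
Deposited log ratios (vertical axis, base unstated) are plotted against the place of the probe in the run for the 10 members with the largest difference, with 5mC in red, 5hmC in blue and the IVT array in green. 5mC moves by more than 1 log unit between neighbouring probes in most of these runs, while in most of them the 5hmC arrays stay low throughout.

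Other members, picked for their place in the ranking after their values were seen, show the range of the set. The member with the highest 5mC percentile, 99.7, had 3 probes with 5mC values of 2.25, -0.48 and 2.36. Its 5hmC values were 0.22, -0.67 and 1.11, and its IVT values were -0.33, -1.60 and 0.95, so each array was lowest at the middle probe. The member with the lowest 5mC percentile, 25.2, had 6 probes with 5mC values from -1.21 to 0.81, 5hmC values from -1.86 to -1.47 and IVT values from -4.81 to -3.92. Its first 3 probes were above 0 for 5mC and its last 3 below. The member in the middle of the ranking had 5 probes with 5mC values between 0.43 and 1.45, 5hmC values between -0.87 and 1.27 and IVT values between -1.35 and -0.33. Here 5mC was above 0 at each of the 5 probes, and the 5hmC array was on both sides of 0. The highest ranked member of 7 probes had 5mC values of -1.45, -0.81, 1.48, 2.04, 0.40, 1.58 and 1.86, with a step from low to high after the second probe. Its 5hmC values lay between -0.75 and 0.72.

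Within members, 5mC varied more between neighbouring probes than 5hmC. The median SD over the probes of a member was 0.81 (5mC), 0.49 (5hmC) and 0.59 (IVT array). Over all runs of 3 to 7 these were 0.74, 0.52 and 0.72. At the level of single probes, ranked among all probes, 69.4% of member probes had 5mC above both 5hmC arrays, against 34.7% in all runs. The rule was applied to the medians of these probes and so favours that order. All probes had this order in 215 members (22.8%), against 3.84% of all runs. In 120 members most probes did not have it, as in 8672 of all 12797 runs. The outer and the inner probes of members had similar median percentiles, at 67.8 and 64.3 for 5mC, 38.4 and 39.6 for 5hmC, and 32.2 and 32.7 for the IVT array.

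Many members did not keep the difference without 1 of their probes. When the probe with the highest 5mC value was left out, 331 of 943 members (35.1%, 32.1 to 38.2) kept a difference of at least 20 points. When the probe with the lowest 5mC value was left out instead, 744 (78.9%, 76.2 to 81.5) kept it. Without its highest 5mC value a run's 5mC median can only fall or stay, and without its lowest it can only rise or stay. The direction of this contrast therefore follows from which probe was removed. The same probes chose the members, and no share for other runs was set beside these shares, so they are a description only. Leaving out any 1 probe left the difference standing in 216 members (22.9%, 20.3 to 25.7). In 239 members at least 1 such choice put 5mC below 1 of the 5hmC arrays.

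The difference was also read on probes that took no part in the choice. These alternate with the probes that chose the run, so they do not show how far a difference extends. The cause of any change between the sets of probes was not tested. The rule was applied to the odd-placed probes alone in the 8387 runs of 4 to 7 probes, and the chosen runs were then read on their even-placed probes. The 765 chosen runs had median percentiles of 76.7 (5mC), 36.6 (5hmC) and 27.8 (IVT array) on the probes that chose them. On the probes not used these were 40.7, 38.0 and 37.1. The 5hmC level of the chosen runs was thus nearly the same on the other probes, the IVT level was somewhat nearer to the middle, and the 5mC level was below the middle of the runs and close to both 5hmC arrays. A difference of at least 20 points to both was found on the unused probes in 101 of the 765 runs (13.2%, 10.9 to 15.8), against a background of 8.27% of all 8387 runs. 5mC above both with no minimum was found in 304 of them (39.7%, 36.3 to 43.3), against 34.2% of all these runs.

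**Figure D3:**
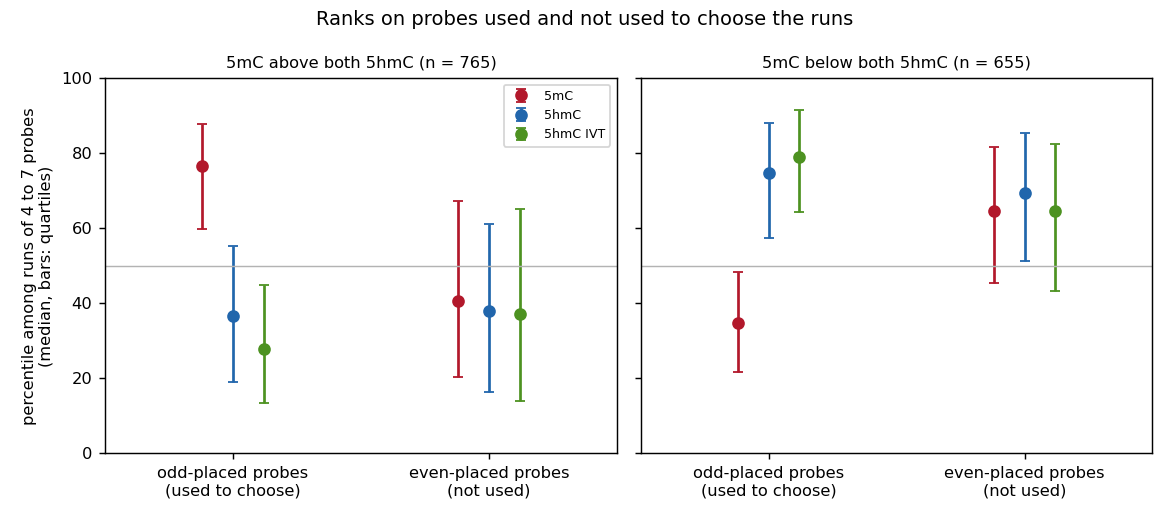
Points are median percentiles and bars are quartiles over the runs chosen on their odd-placed probes, for the probes that chose them and for the even-placed probes that did not. For the 765 runs with 5mC above both 5hmC arrays (left), 5mC goes from 76.7 to 40.7 while 5hmC stays at 36.6 and 38.0. For the 655 runs with 5mC below both (right), 5mC goes from 34.8 to 64.5 while 5hmC goes from 74.7 to 69.5.

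Runs with the opposite order gave values of the same kind. The 655 runs with 5mC at least 20 points below both 5hmC arrays on the odd-placed probes had a 5mC percentile of 34.8 there and of 64.5 on the even-placed probes. The same difference was found on the unused probes in 11.8% of them, against 7.70% of all runs. The arrays differed in how well the 2 sets of probes of a run matched. Across the 8387 runs r was 0.520 (5mC), 0.863 (5hmC) and 0.543 (IVT array), each within 1 array. From the odd-placed to the even-placed probes of a run, the percentile of 5mC moved by 17.7 points (median). That of 5hmC moved by 7.73 points and that of the IVT array by 15.6 points. The minimum difference of 20 points is not far above the values of 5mC and the IVT array. These values compare parts of runs, however, and members were chosen on medians of whole runs.

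At an equal 5hmC level the chosen runs differed little from other runs in 5mC on the unused probes. The runs were sorted into deciles by the 5hmC percentile of their odd-placed probes, and chosen runs were set beside runs in which 5mC was within 20 points of both 5hmC arrays. In decile 3 the median 5mC percentile on the even-placed probes was 33.8 for chosen runs and 28.5 for the others. In decile 6 it was 60.6 and 55.9. Over the 8 deciles that held chosen runs the difference ranged from -0.24 to 5.28 points, and in deciles 4 and 7 it was below 0.

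The IVT array could be read in runs that it did not help to choose. The 1741 runs with 5mC at least 20 points above the 5hmC array had median percentiles of 73.2 for 5mC, 40.3 for 5hmC and 48.8 (95% interval of the median 46.7 to 51.5) for the IVT array. Without the IVT array in the rule, the IVT level of these runs was thus close to the middle of all runs. They were set beside runs in the same decile of the 5hmC array whose 5mC lay within 20 points of it. In the lowest 2 deciles of 5hmC the IVT percentile of the chosen runs was lower, at 6.67 against 7.98 and at 14.6 against 18.7. In deciles 3 to 8 it was higher, by 2.68 to 12.7 points. The direction therefore differed between regions with very low 5hmC and the others, a difference that was not tested.

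Regions next to members shared the order only to a small extent. Of the members 540 had another group of probes within 10 probe numbers of an end. Among 599 such groups 5mC was above both 5hmC arrays in 36.6% (32.7 to 40.6), against 30.2% of the 9253 groups next to any run of 3 to 7. The median percentiles of the groups next to members, among all probes, were 48.8 (5mC), 48.1 (5hmC) and 50.3 (IVT array). For the neighbours of any run they were 52.2, 55.6 and 53.6. The groups next to members were thus near the middle but below this reference on each array, most of all for 5hmC. Among the 243 neighbouring groups that were themselves runs of 3 to 7 probes, 30 (12.3%) were members, against 6.92% for the neighbours of any run. In the 356 neighbouring groups of other lengths, which the rule did not use at all, 5mC was above both in 34.3% (29.3 to 39.5), against 31.4% for the neighbours of any run. A neighbour within this distance was present for 57.3% of members, for 63.2% of all runs and for 71.7% of the runs with the opposite order.

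The share of runs that met the rule was largest for short runs. It was 9.48% (8.63 to 10.4) for 3 probes, 7.53% (6.69 to 8.45) for 4, 6.13% (5.20 to 7.16) for 5, 4.04% (3.10 to 5.17) for 6 and 5.31% (3.98 to 6.93) for 7. Runs of 3 probes gave 418 of the 943 members. All lengths were ranked together, with medians taken over fewer probes in shorter runs. The intervals cover only counting error over runs, and the cause of the differing shares was not tested. For the opposite order the shares were 7.94% for 3 probes and between 5.10% and 5.54% for longer runs.

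**Figure D4:**
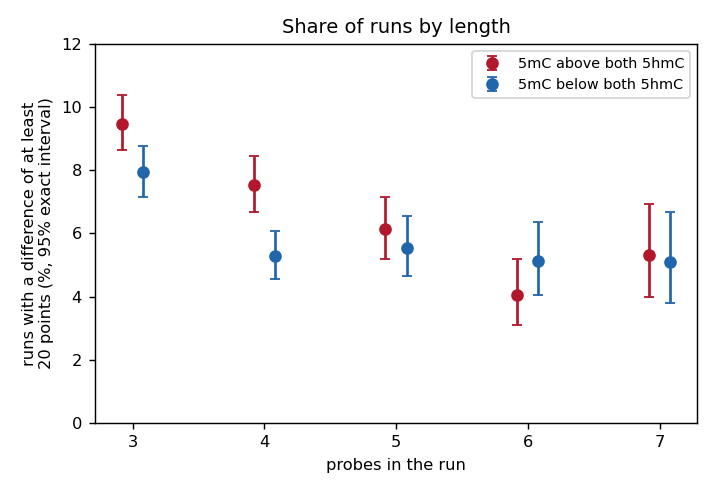
The share of runs with a difference of at least 20 points (vertical axis, percent) is plotted by the number of probes in the run, with 95% exact intervals. The share with 5mC above both 5hmC arrays (red) goes from 9.48% at 3 probes to 4.04% at 6 probes, and that with 5mC below both (blue) from 7.94% to 5.12%.

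Members occurred along the whole probe order and were denser at its end. Each of the 89 blocks of 1000 probes, the last of them shorter, held members. Over the first 86 blocks the share of runs that were members was 7.03% (6.59 to 7.50), and the share per block ranged from 2.74% to 12.3%. In the last 3 blocks it was 18.1% (14.4 to 22.3), or 70 of 387 runs, and each of these blocks was above the range of the others. The IVT array had a median of -0.96 over the probes of these blocks, against -0.52 elsewhere. Measured on the 5hmC array alone, 20.2% of runs in the last blocks had 5mC at least 20 points higher, against 13.4% elsewhere, and on the IVT array alone 47.0% against 21.5%. Lower IVT values and a larger share of members thus occurred together in these blocks. Outside them the lowest IVT medians were -0.82 in block 63 and -0.81 in block 73. The shares of members there were 6.67% and 4.69%. Any part of the IVT values in the share of members was not tested. The opposite order was met by 3.10% of runs in these blocks and 6.31% elsewhere. Members outside the last blocks had median percentiles of 76.0, 39.4 and 31.2 for 5mC, 5hmC and the IVT array, close to those of the whole set.

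**Figure D5:**
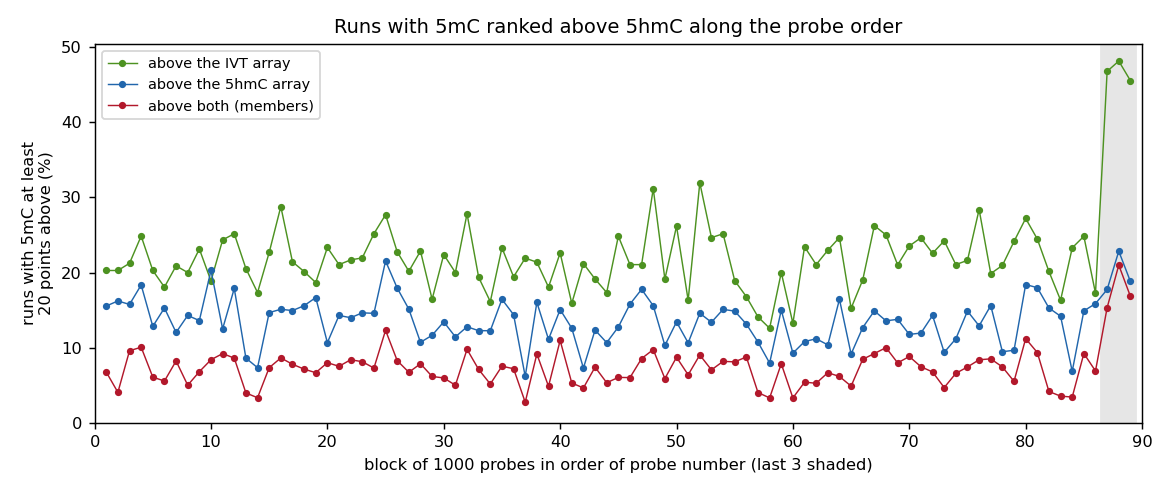
The share of runs with 5mC at least 20 points above the IVT array (green), above the 5hmC array (blue) and above both (red) is plotted for 89 blocks in the order of probe number. In the shaded last 3 blocks the members' share is 15.3% or more, above the 2.74% to 12.3% of the first 86 blocks, and the green line lies furthest above its level elsewhere.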

How the data were processed

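The authors deposited 1 table of signed values for 88736 probes on 3 arrays of 2 colours. The values have the form of a log ratio of an unstated base, and the sources used here name neither normalization nor centring nor genome build. Depth and signal over background are unknown. Precision is limited by having 3 arrays. The 88734 probes with values on all 3 arrays were used. Consecutive probe numbers formed 26979 runs, of which 12797 held 3 to 7 probes. Run medians were turned into percentiles within each array with Python 3.11.15, pandas 2.3.3 and numpy 2.4.6. Intervals are 95% Clopper-Pearson intervals (scipy 1.17.1) for shares and order-statistic intervals for medians, both over runs or probes, which are not replicates. With 1 array per group no p-value was computed. The procedures were tested on simulated data. The members, the comparisons and the alternatives were chosen with earlier results of these data known. Members were ranked by the smaller of their differences to the 5hmC arrays. Values of the first 10 are described, and probe numbers are printed for the first 2 only. The gene lists fixed for this work were not used, since probes were not paired with genes here.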

Additional observations from a re-analysis of the deposited data

How the results depend on the processing

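Of the alternative values, 25 lay inside the 95% interval of the reported value (for counts, within 1.5 times of it) and 14 lay outside. The number of members, 943, was 1429, 606 and 392 with minimum differences of 15, 25 and 30 points and 216 when the difference had to hold with any 1 probe left out, which are fewer or more by construction. It was 1741 with the 5hmC array alone and 2855 with the IVT array alone, since no second array then limits it. On a robust z scale with a difference of at least 0.5 it was 1800. With means in place of medians it was 765 and with percentiles over all probes 677. The share of members with 5mC above and both 5hmC arrays below the middle, 42.7%, was 65.6% at 30 points and 26.1% with the 5hmC array alone, where the median 5mC percentile was 73.2. Neighbouring groups with 5mC above both made up 42.1% for members at 30 points, and 8.68% when 20 points were asked of the neighbour, against 6.48% for neighbours of any run. On probes not used for the choice, the share was 39.7% when no minimum was asked, and 14.6% with the sets of probes exchanged. It was 13.6% in runs of 4 to 5 probes and 11.8% in runs of 6 to 7, lengths chosen after seeing the data like the split of neighbours by length, against 8.35% and 8.27% of all such runs. The IVT percentile of runs chosen without that array was 44.5 at 30 points. For shifts that do not follow from the setting's construction, the cause was not tested. Without the last 3 blocks the share on unused probes was 12.3%. No paired analysis was possible because there was a lone array for each group, and for the same reason no replicate could be left out.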
